A study of Mus musculus with 10 samples.

Results

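The HoxB cluster is a row of 10 homeobox genes on mouse chromosome 11, Hoxb1 to Hoxb9 and Hoxb13. All 10 were measured among 17991 genes named on the arrays, each by 1 probe chosen by its gene annotation and not by its values. The animals were male ApoE-/- mice aged 14 weeks, which lack apolipoprotein E and so develop high plasma cholesterol and atherosclerosis; no other genotype was analysed here, so both regions carry the knockout. Each of 5 pools held the abdominal aortas of 2 mice and was cut at the kidney arteries into a lower, infrarenal and an upper, suprarenal part. The 5 infrarenal and 5 suprarenal RNA samples were read on 1 single-colour array each, and the pools are named 1, 6, 8, 11 and 12 after the sample titles.

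Hox genes encode transcription factors whose homeodomain binds DNA, and they tell cells of the embryo where they lie between head and tail. Within a cluster the genes are used in the order in which they stand: genes of low paralogue number act towards the head, and genes of high number act towards the tail. Adult smooth muscle cells and fibroblasts keep a Hox pattern of the place where they formed, which makes these genes position marks along a vessel. Paralogues, the genes of the same number in the HoxA, HoxB, HoxC and HoxD clusters, arose by duplication of an ancestral cluster.

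By the start coordinate of their RefSeq entries (GRCm38.p6) the members run Hoxb13, Hoxb9, Hoxb8, Hoxb7, Hoxb6, Hoxb5, Hoxb3, Hoxb4, Hoxb2 and Hoxb1. Only starts were compared, so the place of Hoxb3 before Hoxb4 need not be the order of their coding parts. In this sort the non-coding gene Hoxb5os lies between Hoxb7 and Hoxb6, and the microRNA gene Mir196a-1 between Hoxb13 and Hoxb9. Mir10a falls between the starts of the Hoxb3 and Hoxb4 entries, with the same limit. Start regions of 3 members, Hoxb1, Hoxb4 and Hoxb8, matched the RefSeq promoter table of that build. The Hoxb8 and Hoxb1 windows, each 300 bases on the plus strand from 250 before to 50 after the start, are shown because these genes stand next to Hoxb7 and Hoxb2, on which the results below turn. Capitals mark matches on either strand to TATAAA (the TATA box), AGGTCA (part of the sites of retinoic acid receptors), TGATTNA (part of a Hox-Pbx site) or TTTATNG (a Cdx-type site).
Hoxb8, chr11:96281655-96281954: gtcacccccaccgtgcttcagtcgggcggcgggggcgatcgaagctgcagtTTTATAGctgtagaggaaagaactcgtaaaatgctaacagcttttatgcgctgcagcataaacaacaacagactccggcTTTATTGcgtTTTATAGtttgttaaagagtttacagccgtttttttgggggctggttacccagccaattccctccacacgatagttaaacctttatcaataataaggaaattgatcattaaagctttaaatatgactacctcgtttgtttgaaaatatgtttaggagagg
Hoxb1, chr11:96365508-96365807: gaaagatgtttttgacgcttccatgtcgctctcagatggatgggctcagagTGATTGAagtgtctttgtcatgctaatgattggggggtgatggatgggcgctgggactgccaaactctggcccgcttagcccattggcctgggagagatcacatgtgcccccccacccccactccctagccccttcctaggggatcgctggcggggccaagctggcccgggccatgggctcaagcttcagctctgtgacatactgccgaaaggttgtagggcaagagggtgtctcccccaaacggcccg
The Hoxb8 window held 3 matches to TTTATNG and 2 to TATAAA, and both of the latter overlap matches to the former. The Hoxb1 window held 1 match to TGATTNA, and the Hoxb4 window, chr11:96318017-96318316, held 1 match to AGGTCA. Of 27025 promoters of the same length, 11.3% held TTTATNG, 14.2% TATAAA, 10.6% TGATTNA and 16.0% AGGTCA. A match describes the letters only and says nothing of binding in these samples.

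Values are log2 of the deposited intensity, which the authors had scaled to a median near 1 on each array, so 0 is about the median probe. No detection call was given. The Hoxb1 probe lay at percentile 11.1 of mean brightness over all probes and the other 9 members lay above percentile 30; no member was at the floor on any array. Across probes, r between pairs of arrays lay from 0.962 to 0.975. Smooth muscle markers, which define the vessel wall, were measured for 12 of 12 genes and averaged 5.81 to 6.19 log2 units per array. Pool 12 stood apart. Over 24992 brighter probes r between its regional differences and the average of the remaining pools was -0.308, where pools 6, 8 and 11 gave 0.339, 0.175 and 0.128 and pool 1 gave -0.097. Whether the labels of the 2 pool 12 arrays were exchanged was not tested, no array was regrouped, and the HoxB differences and list medians are given with and without this pool; other values are on all pools unless stated. In samples of whole tissue, fewer cells of a type and less RNA per cell cannot be told apart.

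The comparison asked whether HoxB expression in the same animals differs along the abdominal aorta. On all 10 arrays 8 of the 10 members had negative differences, infrarenal minus suprarenal, with a median of -0.10 log2 units against -0.05 over all genes, of which 60.4% were negative. Hoxb2, Hoxb6 and Hoxb7 had the lower infrarenal value in pools 1, 6, 8 and 11 and the higher one in pool 12. Hoxb3, Hoxb5, Hoxb8, Hoxb9 and Hoxb13 had mean differences close to 0. No member passed the test, limma with the pool as a block and Benjamini-Hochberg adjustment over all 36061 probes at 0.05, and the background was 0.0% in either direction. At an unadjusted p under 0.05 there were 0 members, beside 4.51% of all probes lower and 3.05% higher in infrarenal aorta. Without pool 12, 9 of 10 members were negative with a median of -0.11, where 57.5% of all genes were negative with a median of -0.04, and again 0 passed, with a background of 0.0%. In that fit 3 members, Hoxb2, Hoxb6 and Hoxb7, had an unadjusted p under 0.05, all lower in infrarenal aorta, beside a background of 6.77% lower and 4.13% higher. Pool 12 was singled out because these same data were known to run against the other pools in it. Its removal narrows the spread of genes with the opposite sign there, as these 3 have. Their p-values, intervals and separation without pool 12 are therefore descriptions and no independent support.

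**Figure D1:**
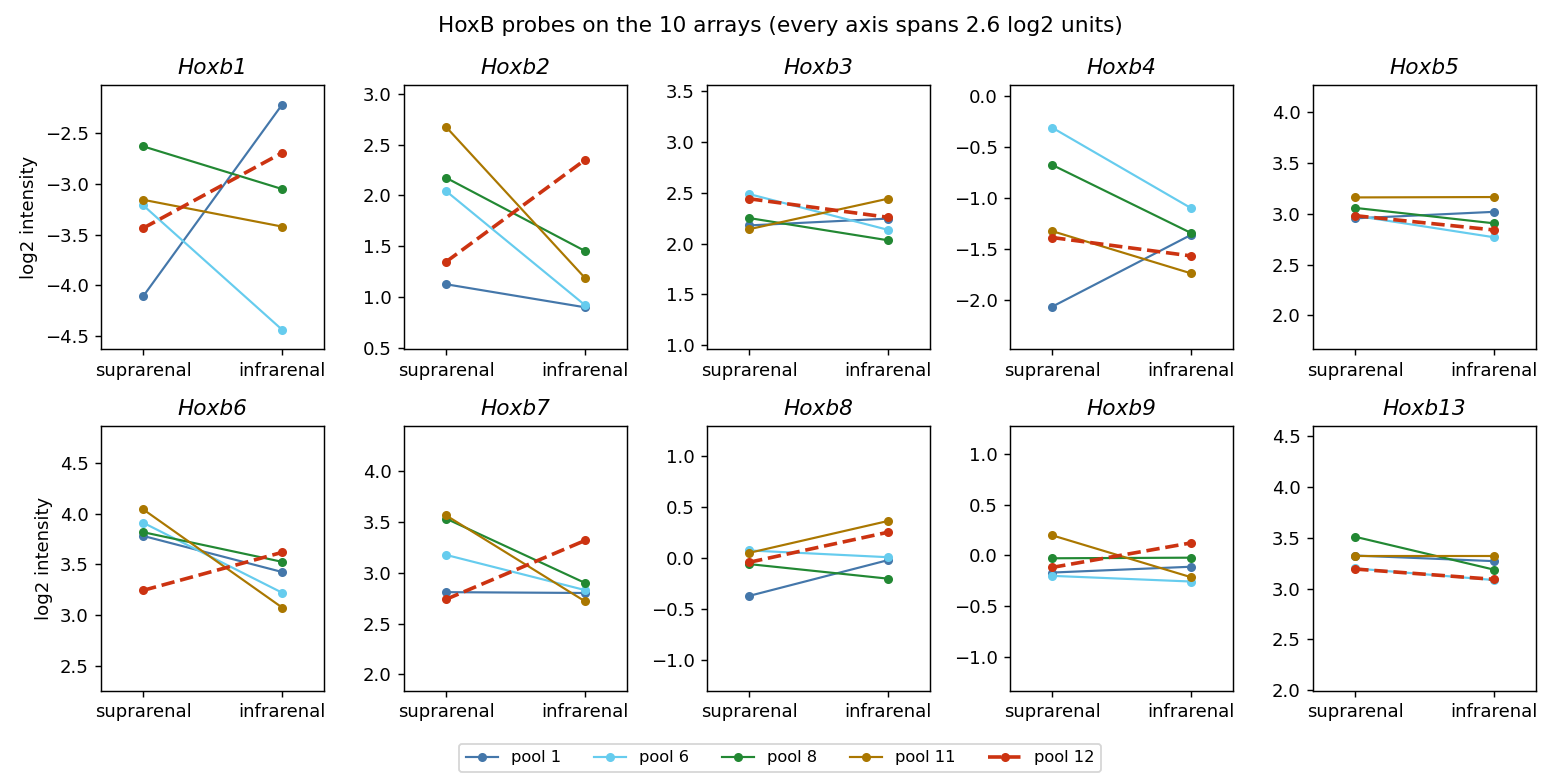
Each panel plots the log2 intensity of 1 HoxB probe in suprarenal and infrarenal aorta, with a line for each of the 5 pools and pool 12 dashed. For Hoxb2, Hoxb6 and Hoxb7 the lines of pools 1, 6, 8 and 11 slope down and that of pool 12 slopes up.

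Hoxb2, a member of the anterior part of the cluster that patterns the hindbrain in the embryo, had the largest mean difference among the 10 members without pool 12, though Hoxb1 differed more in pools 1 and 6. In infrarenal aorta it read 0.90, 0.92, 1.45, 1.19 and 2.35 log2 units in pools 1, 6, 8, 11 and 12. In suprarenal aorta it read 1.13, 2.04, 2.17, 2.67 and 1.35. The infrarenal array of pool 12 was thus the highest of its region, and the suprarenal arrays of pools 1 and 12 were the lowest of theirs, so the regions overlapped. The differences per pool were -0.23, -1.12, -0.72, -1.49 and 1.002, and the mean was -0.51 ± 0.32 (SE), with an adjusted p of 0.665 by limma and a 95% interval from -1.24 to 0.22. Without pool 12 the difference was -0.89 ± 0.19 (SE), or an infrarenal level 54.0% of the suprarenal one, with an interval of 39.4% to 74.0% and an adjusted p of 0.383.

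Hoxb6, of the middle of the cluster, marks trunk levels in the embryo. In infrarenal aorta it read 3.43, 3.22, 3.53, 3.08 and 3.62 log2 units in pools 1, 6, 8, 11 and 12, and in suprarenal aorta 3.78, 3.91, 3.82, 4.04 and 3.24. The suprarenal array of pool 12 was the lowest of its region and its infrarenal array the highest of the other. On the 8 arrays of the other pools the regions did not overlap, from 3.08 to 3.53 against 3.78 to 4.04. Such separation was seen in 1 of 10 members, beside a background of 3.7% of probes lower and 2.16% higher; on all 10 arrays it was seen in 0 members, beside 0.738% and 0.591%. The differences per pool were -0.35, -0.69, -0.29, -0.97 and 0.37. Their mean was -0.39 ± 0.17 (SE; adjusted p = 0.639 by limma), and without pool 12 it was -0.58 ± 0.13 (adjusted p = 0.383), or 67.1% of the suprarenal level.

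Hoxb7, the neighbour of Hoxb6, read 2.80, 2.83, 2.90, 2.72 and 3.32 log2 units in infrarenal aorta of pools 1, 6, 8, 11 and 12. In suprarenal aorta it read 2.81, 3.17, 3.53, 3.56 and 2.74. In pool 1 both regions had nearly the same value, and the regions overlapped also without pool 12. The differences per pool were -0.01, -0.35, -0.63, -0.84 and 0.58, with a mean of -0.25 ± 0.19 (SE; adjusted p = 0.712 by limma). Without pool 12 the mean was -0.46 ± 0.14 (adjusted p = 0.392), or 72.8% of the suprarenal level.

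In pools 1, 6, 8 and 11, 3 of 10 members were lower in infrarenal aorta each time and 0 were higher, beside 11.3% and 8.5% of all probes. All 3 had the opposite sign in pool 12, a pattern that 6.01% of all probes shared, while 4.64% had its mirror image. No member had the same sign in all 5 pools, beside 5.24% of probes negative and 3.85% positive. Hoxb13 was never positive: it was negative in 4 of 5 pools and read 3.32 log2 units in both regions of pool 11. Hoxb5os, the non-coding gene whose start sorts between those of Hoxb7 and Hoxb6, is no member and was named after its values were seen. It read 0.32, 0.17, 0.13, 0.41 and 1.44 log2 units in infrarenal and 0.91, 1.94, 2.27, 1.78 and 0.44 in suprarenal aorta of pools 1, 6, 8, 11 and 12. The pattern of Hoxb2, Hoxb6 and Hoxb7 thus also held for this probe, with a difference of -0.98 ± 0.40 (SE; adjusted p = 0.639 by limma) and of -1.47 ± 0.23 without pool 12 (adjusted p = 0.383). The labels do not give the strand and exact target of a probe, so transcripts that overlap in this stretch cannot be told apart.

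**Figure D2:**
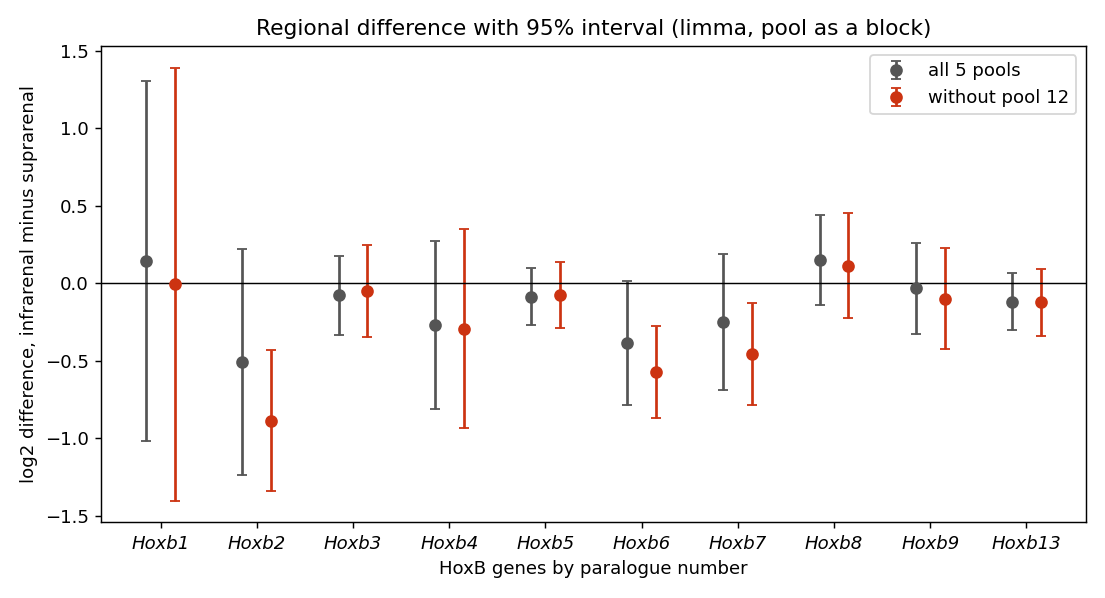
Points are limma's log2 differences, infrarenal minus suprarenal, for the 10 HoxB genes with their 95% intervals, on all 5 pools in grey and without pool 12 in red. On all pools every interval includes 0, and without pool 12 those of Hoxb2, Hoxb6 and Hoxb7 lie below 0. Pool 12 was left out with its opposite signs known.

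Markers of brown adipocytes, heat-producing fat cells that also lie around the aorta, had the same signs by pool as Hoxb2, Hoxb6 and Hoxb7 except in pool 1. The brown adipocyte score, the mean log2 intensity of 10 of 10 marker genes with none at the floor, ran from 2.74 to 5.11 in infrarenal and from 2.54 to 5.29 in suprarenal aorta. Its differences were 0.09, -2.20, -0.62, -2.03 and 1.44 in pools 1, 6, 8, 11 and 12. Of its genes 9 of 10 were negative with a median of -0.59 (-1.28 without pool 12), among them Elovl3, which lengthens fatty acids, at -1.51 and Fabp3, which carries them, at -1.09. Over the 10 arrays the score correlated at 0.82 with Hoxb6, 0.52 with Hoxb7 and 0.41 with Hoxb2. Hoxb13 at 0.48, Hoxb1 at 0.45 and Hoxb9 at 0.39 lay close to Hoxb2, and the other 4 members ranged from -0.29 to 0.37. With the score as a covariate the difference of Hoxb2 moved from -0.51 to -0.10, that of Hoxb6 from -0.39 to -0.18 and that of Hoxb7 from -0.25 to -0.04. Without pool 12 they moved from -0.89 to -0.35, from -0.58 to -0.29 and from -0.46 to -0.24. On all pools none of the 3 had an unadjusted p under 0.05 with or without the covariate. Without pool 12 all 3 had one before and none with it, while over all 36061 probes the number fell from 3931 to 1272. The score itself differed between the regions within pools, so these fits cannot tell fat content from region. The part of brown fat in the HoxB differences was not tested. In pool 1, where the score was nearly equal in both regions, Hoxb6 differed by -0.35, Hoxb2 by -0.23 and Hoxb7 by -0.01. General adipocyte genes had 8 of 8 negative with a median of -0.24 (-0.42 without pool 12), with Lpl, lipoprotein lipase, at -0.56 and Slc2a4, a glucose transporter, at -0.57, and their score ran from 4.76 to 5.52 in infrarenal and from 4.74 to 6.15 in suprarenal aorta. The general adipocyte score correlated at 0.71 with Hoxb6, 0.43 with Hoxb7 and 0.37 with Hoxb2. With the other members its r ranged from -0.15 for Hoxb8 to 0.45 for Hoxb4.

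**Figure D3:**
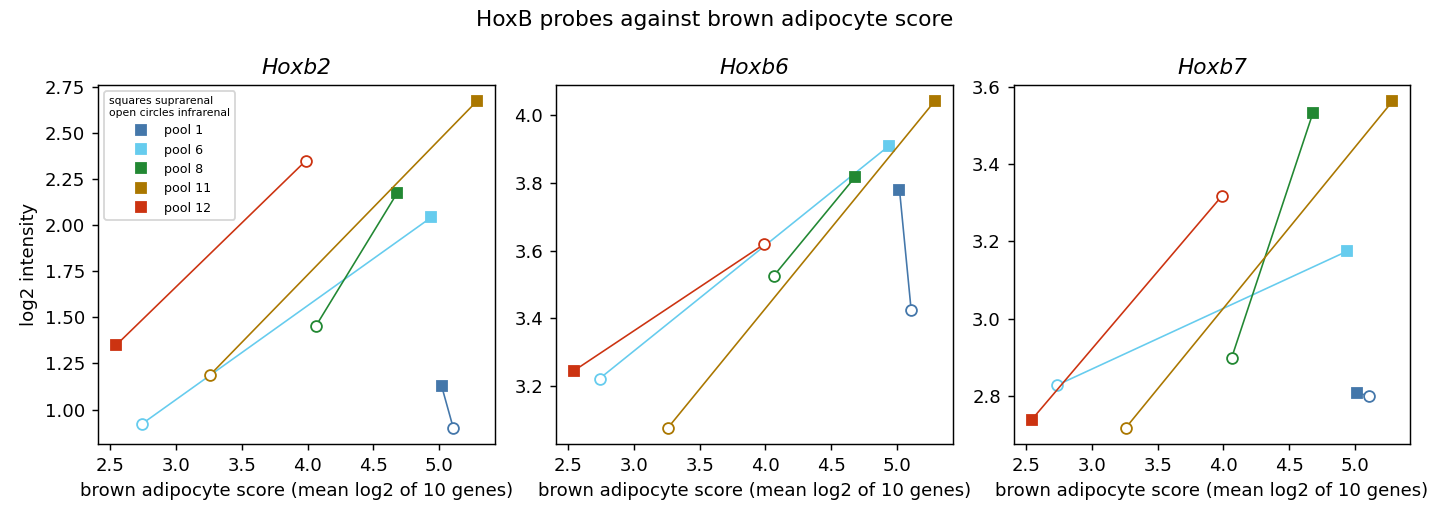
The log2 intensity of Hoxb2, Hoxb6 and Hoxb7 is plotted against the brown adipocyte score of each array, with suprarenal arrays as squares, infrarenal arrays as open circles and a line joining the 2 arrays of a pool. In pools 6, 8, 11 and 12 the array with the higher score has the higher HoxB value, and in pool 1 the scores are nearly equal.

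Hoxb3, Hoxb5, Hoxb8, Hoxb9 and Hoxb13 had smaller standard errors on all pools, of 0.08 to 0.13 log2 units. Without pool 12 the standard errors of Hoxb3, Hoxb8 and Hoxb9 were 0.13, 0.14 and 0.14. Those of Hoxb6 and Hoxb7 were then 0.13 and 0.14, so the contrast with these 2 genes rested on pool 12. Hoxb3, an anterior gene, lay between 2.03 and 2.44 in infrarenal and between 2.14 and 2.49 in suprarenal aorta, and differed by -0.08 (-0.05 without pool 12). Hoxb5, of the middle of the cluster, lay between 2.77 and 3.16 and between 2.95 and 3.16, and differed by -0.09 (-0.07 without pool 12). For both genes the ranges overlapped between the regions. Hoxb8, the neighbour of Hoxb7, lay between -0.20 and 0.36 and between -0.37 and 0.07, and was the only member with a positive difference both with pool 12 (0.15) and without it (0.11). Hoxb9, of a posterior paralogue group, lay between -0.26 and 0.12 and between -0.20 and 0.20, and differed by -0.03 (-0.10 without pool 12). Hoxb13, the most posterior member, lay between 3.08 and 3.32 in infrarenal and between 3.19 and 3.51 in suprarenal aorta, and differed by -0.12 with and without pool 12. The 95% intervals of these 5 genes reached at most from -0.33 to 0.44 on all arrays. The ranges of all 5 overlapped between the regions.

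The remaining members gave little precision. Hoxb4, a factor known for the growth of blood stem cells, lay between -1.74 and -1.10 in infrarenal and between -2.07 and -0.31 in suprarenal aorta. Its difference was -0.27 ± 0.24 (SE), with an interval from -0.81 to 0.27 and a value of -0.29 without pool 12, and it was negative in 4 of 5 pools, pool 1 being the exception at 0.71. Hoxb1, the most anterior member and a hindbrain gene, lay between -4.44 and -2.22 and between -4.11 and -2.63, with a difference of 0.14 ± 0.50 (SE) and of -0.01 ± 0.60 without pool 12. Its pools ran from -1.22 in pool 6 to 1.88 in pool 1. Its interval held infrarenal levels from 49.4% to 247% of the suprarenal one.

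The members varied together in part. Over the 10 arrays, which share animals within a pool, Hoxb2 and Hoxb7 correlated at r = 0.93, Hoxb6 and Hoxb7 at 0.78, and Hoxb2 and Hoxb6 at 0.74. Hoxb9 followed them at 0.78 with Hoxb2, 0.73 with Hoxb7 and 0.55 with Hoxb6, although its regional difference was close to 0. Hoxb5 and Hoxb13 formed another pair at 0.74. The 45 pairs ranged from -0.38, for Hoxb3 and Hoxb9, to 0.93 with a median of 0.24. Pairs next to each other by paralogue number had a median of 0.15 and the other 36 pairs a median of 0.27. Hoxb5os correlated at 0.88 with Hoxb7, 0.84 with Hoxb2 and 0.81 with Hoxb6, and at 0.31 with Hoxb5. These values are descriptions of 10 arrays.

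**Figure D4:**
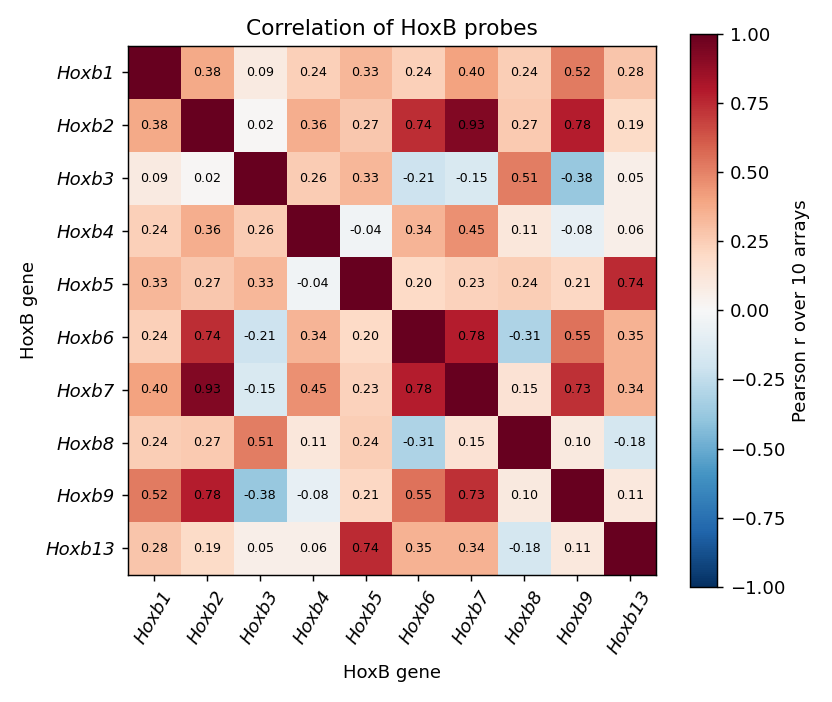
The grid gives Pearson's r over the 10 arrays for each pair of HoxB probes, red for positive and blue for negative. Hoxb2, Hoxb6, Hoxb7 and Hoxb9 form the block of r from 0.55 to 0.93.

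Among 13933 brighter genes outside the Hox clusters, the 2 most like each of 9 members over the 10 arrays are named; the dim Hoxb1 probe was not searched. For Hoxb2 they were Clmp, a cell adhesion molecule, and Ano1, a calcium-activated chloride channel, both at r = 0.95. For Hoxb6 they were Urgcp and Jag2, a ligand of Notch receptors, both at 0.95. For Hoxb7 they were Twist1, a mesenchymal transcription factor, at 0.95 and Sema3e, a guidance signal, at 0.93. All 6 of these genes had a positive difference in pool 12, between 0.33 and 1.26, and a negative one without it, between -0.83 and -0.29. For the flatter members the closest were Slc38a10 and Osbpl2 for Hoxb3, at 0.92 each, and Rpf1 and Atp11b for Hoxb13, at 0.96 each. Smc3 and Hand1 were closest to Hoxb5 (0.93 and 0.91), Prdm16os and Pcdhb13 to Hoxb8 (0.91 each), Setd6 and Rfx2 to Hoxb9 (0.94 and 0.90), and Rfxank and Has2 to Hoxb4 (0.92 and 0.90). The best of so many genes is high by selection.

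The other Hox clusters give the surroundings. Of 24 genes measured in HoxA, HoxC and HoxD, 0 passed on all arrays and 0 without pool 12. At an unadjusted p under 0.05 without pool 12 there were 6 lower and 6 higher in infrarenal aorta, beside 6.77% of all probes lower and 4.13% higher. The HoxB counts in that fit were 3 lower and 0 higher, and the clusters were not tested against each other. Pool 12 had the sign opposite to all 4 other pools for 9 of the 24, of which 4 were lower and 5 higher in infrarenal aorta of those pools, beside 6.01% and 4.64% of all probes. Median differences on all arrays were -0.08 for 10 HoxA genes, -0.10 for 7 HoxC genes and 0.19 for 7 HoxD genes, beside -0.10 for HoxB, and -0.03, -0.09, 0.16 and -0.11 without pool 12. The members of smallest p were Hoxa5 (-0.39) and Hoxa2 (-0.34), Hoxc6 (-0.36) and Hoxc8 (-0.45), and Hoxd10 (-0.27) and Hoxd1 (-0.15). None passed.

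Paralogues are given side by side without pool 12, with the value on all pools in parentheses. Hoxb9 had -0.10 (-0.03), Hoxa9 0.55 (0.13), Hoxd9 0.16 (0.03) and Hoxc9 0.03 (-0.10). Hoxb13 had -0.12 (-0.12) and Hoxc13 -0.11 (-0.16), and the dim probes of Hoxa13, with 1 array at the floor, and Hoxd13 had 0.57 (0.40) and 0.41 (0.26). In the trunk groups, Hoxb6 had -0.58 (-0.39) and Hoxc6 -0.37 (-0.36). Hoxa6 had -0.31 (-0.28) on a dim probe at percentile 15.9, with a standard error of 0.53 without pool 12. Hoxb7 had -0.46 (-0.25) and Hoxa7 0.01 (-0.02). Hoxb8 had 0.11 (0.15), Hoxc8 -0.74 (-0.45) and Hoxd8 0.68 (0.33). Hoxb5 had -0.07 (-0.09), Hoxa5 -0.50 (-0.39) and Hoxc5 -0.06 (-0.09). In the anterior groups, Hoxb1 had -0.01 (0.14) and Hoxd1 -0.17 (-0.15), and Hoxb2 had -0.89 (-0.51) and Hoxa2 -0.36 (-0.34). Hoxb3 had -0.05 (-0.08), Hoxa3 -0.07 (-0.13) and Hoxd3 0.10 (0.19). Hoxb4 had -0.29 (-0.27), Hoxa4 -0.75 (-0.51) and Hoxc4 -0.09 (-0.05). The HoxB cluster has no gene of groups 10 and 11, where the signs were mixed: Hoxa10 had 1.05 (0.50), Hoxc10 0.68 (0.36), Hoxd10 -0.36 (-0.27) and Hoxa11 1.57 (0.80). Hoxd11 had 2.12 (1.06) on a dim probe at percentile 19.3 that was at the floor on 1 suprarenal array, so the size of its difference depends on the floor. Differences between paralogues were not tested.

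**Figure D5:**
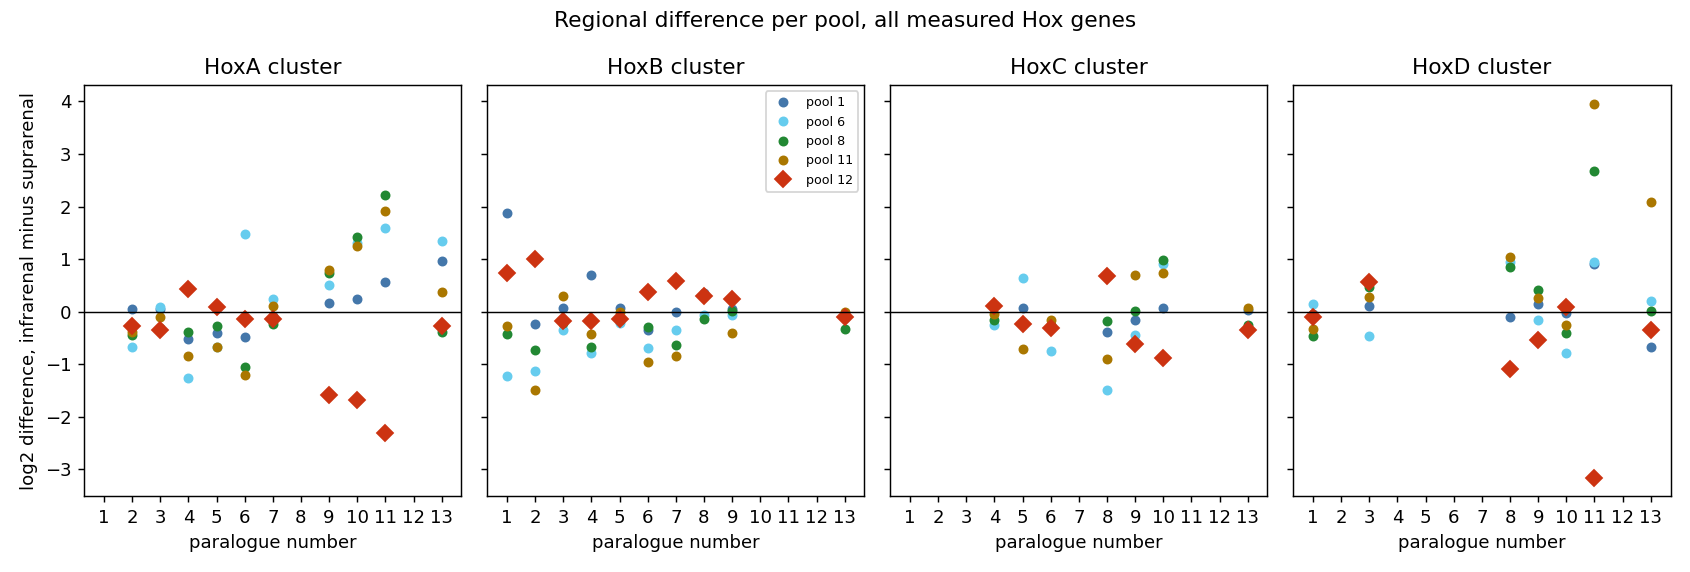
Points are regional log2 differences per pool, infrarenal minus suprarenal, for each measured gene of the 4 Hox clusters by paralogue number, with pool 12 as red diamonds. In the HoxB panel the pool 12 diamonds of Hoxb2, Hoxb6 and Hoxb7 lie above 0 and the other pools below, and in the HoxA panel those of Hoxa9, Hoxa10 and Hoxa11 lie below 0.

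Genes that act with or on the Hox clusters did not pass either. Hox cofactors, the Pbx, Meis and Pknox proteins that bind DNA beside Hox proteins, had 3 of 7 negative with a median of 0.01 (0.02 without pool 12), with Meis1 at 0.14 and Pknox1 at -0.19. Cdx and retinoic acid genes, which set Hox expression in the embryo, had 12 of 17 negative with a median of -0.08 with and without pool 12. The retinoid receptor gene Rxrg differed by -0.34 and Rdh10, of retinoic acid synthesis, by -0.24, each negative in 5 of 5 pools. Polycomb and Trithorax genes, which keep Hox genes silent or active, had 11 of 17 negative with a median of -0.02 (-0.04 without pool 12), with Pcgf2 at 0.19 and Kdm6b at -0.39. Of 11 genes flanking the cluster 7 were negative with a median of -0.04 (-0.07 without pool 12). Ttll6, a tubulin-modifying enzyme gene next to Hoxb13 among named protein-coding genes, read by a dim probe at percentile 19.8, differed by 1.09 ± 0.39 (SE) and was positive in 5 of 5 pools. Igf2bp1, an RNA-binding protein gene, differed by -0.22 and was negative in 5 of 5 pools. Both had an adjusted p of 0.639 by limma.

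Other tissue markers varied as well. The skeletal muscle score, over 11 of 12 genes with none at the floor, differed by -2.29, 2.42, 1.03, 3.38 and -2.69 in pools 1, 6, 8, 11 and 12, opposite in sign to Hoxb2 in all pools but the first. It ran from 1.99 to 5.21 in infrarenal and from 1.01 to 5.29 in suprarenal aorta, with a median of 0.41 (1.22 without pool 12), Myh1 at -1.08 and Actn3 at 0.90. The skeletal muscle score correlated at -0.56 with Hoxb6, -0.50 with Hoxb7 and -0.46 with Hoxb2. With the other members its r ranged from -0.41 for Hoxb4 to 0.11 for Hoxb13. With this score as a covariate Hoxb2 differed by -0.39 and Hoxb6 by -0.33, both at an unadjusted p under 0.05 and an adjusted p of 0.629 by limma. The score of adrenal medulla and sympathetic neurons ran from 0.44 to 1.81 in infrarenal and from 0.44 to 2.70 in suprarenal aorta, with a median of -0.18 (-0.58 without pool 12), Dbh, of noradrenaline synthesis, at -0.18 and Pnmt at 0.09. The adrenal medulla and sympathetic neuron score was not used as a covariate. Neither its part nor that of skeletal muscle in the HoxB differences was tested. Medians of the remaining lists were 0.06 for smooth muscle (Lmod1 0.26, Actg2 0.29), 0.02 for fibroblasts (Pi16 -0.23, Col1a1 -0.14), 0.03 for endothelium (Cldn5 -0.37, Cdh5 -0.34) and -0.31 for macrophages (C1qc -0.42, C1qb -0.33). Without pool 12 these 4 medians were 0.07, 0.02, 0.05 and -0.28. They were -0.03 for T and B cells (Cd79a -0.15, Cd3g -0.12), -0.17 for Schwann cells (S100b -0.17, Mbp -0.26) and -0.30 for mesothelium (Msln -1.25, Upk3b -0.94), and -0.16, -0.13 and -0.45 without pool 12. For kidney the median was 0.27 (Slc12a3 -0.51, Slc34a1 0.30) and for adrenal cortex 0.20 (Cyp11a1 -0.55, Mc2r 0.29), and 0.24 and 0.13 without pool 12. In all 20 lists, with 189 genes measured, 0 genes passed.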

How the data were processed

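RNA of 10 pooled aorta samples was amplified from 0.34 to 0.54 µg into biotin-labelled cRNA and stained with Cy5-streptavidin, per the labels' protocols. In pool 12 the infrarenal input was 0.51 µg and the suprarenal input 0.35 µg. In no other pool was the infrarenal input the larger. The authors deposited linear intensities with array medians of 1.001 to 1.003, so a scaling was applied before deposit; scanner, background correction and scaling method are not stated in the labels. Intensities under a floor of 0.0278 (percentile 1 of positive values) were raised to it, 5328 values in all, and log2 was taken. The floor compresses only differences that involve values under it. Probes with at least 3 values in each region were kept, 36061 of 36227. Probes were named by the platform annotation, with symbols renewed by Entrez identifier from RefSeq (GRCm38.p6), which also gave gene order and promoters. Where a gene had several probes the brightest was used.

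Infrarenal and suprarenal arrays were fitted in limma 3.58.1 under R 4.3.3, using eBayes with a variance trend, and the pool was a block since its 2 parts share animals. Tests are two-sided. The number of arrays limits the precision. Between the 2 arrays of a pool, deviations from the mean of the region had r of 0.0452, 0.0062, -0.0331, -0.0525 and -0.0921 in pools 1, 6, 8, 11 and 12. The fit was tested on simulated data with the residual spread of these arrays. It recovered 4 of 50 probes changed by 0.5 log2 units and 19 of 50 changed by 1, with 6 false calls. A member that did not pass is therefore not shown to be unchanged. Every member is named, with the 2 genes of smallest p of every other list and the 2 most similar genes per brighter member. Paralogues and Hoxb5os were named after their values were seen. The members and lists were chosen with earlier results of these data known. Alternatives were no replicate block, quantile normalization, an offset of 0.2701 in place of the floor, dim probes left out, each pool left out, no trend, array weights, RNA input, averaged probes and, chosen after seeing the data, tissue scores as covariates and the settings of the fit without pool 12.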

Additional observations from a re-analysis of the deposited data

Results flagged for a closer look

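In 60 sets of 5 arrays of 1 region, for the 10 members and the scores of the other lists, 3 sets had an array far from the other 4, and chance alone flags about 1 in 20. No HoxB member was among them. The suprarenal array of pool 12 had a brown adipocyte score of 2.54, against 4.68 to 5.29 on the other suprarenal arrays, and it also had the lowest Hoxb6 and Hoxb7 values of its region. The infrarenal array of pool 1 had a Polycomb and Trithorax score of 1.96, against 2.13 to 2.15. The suprarenal array of pool 1 had a Schwann cell score of 3.37, against 2.64 to 2.77.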

How the results depend on the processing

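Under every alternative tried, 0 members passed after adjustment, with all pools and without pool 12. Hoxb2, Hoxb6 and Hoxb7 stayed negative throughout, from -0.89 to -0.10, from -0.58 to -0.18 and from -0.46 to -0.04 (without pool 12 from -1.11 to -0.35, from -0.67 to -0.29 and from -0.61 to -0.24). Over all probes the number past the threshold was 0 except for 1 after quantile normalization, and with each pool left out it was 0. Without pool 12 it was 1 with the skeletal muscle score, and 0 to 23 with another pool also left out, the 23 being without pool 1 and 1 without pool 8. Members at an unadjusted p under 0.05 numbered 0, and 1 (Hoxb6) with no replicate block, with array weights and with RNA input, and 2 (Hoxb2 and Hoxb6) with the skeletal muscle score. Over all 36061 probes those fits had 2758, 2909, 3066 and 2857, so 1 of 10 is near the background. With a pool left out members numbered 0 to 3, being 1 (Hoxb4) without pool 1. All probes at that unadjusted p then numbered from 1475 without pool 6 to 3931 without pool 12, and 2949 without pool 1. Without pool 12 the 3 became 0 with the brown adipocyte score, where all probes had 1272 in place of 3931. They became 2 without pool 8 or 11, which lost Hoxb7, and 4 without pool 1, which added Hoxb4. Over all 36061 probes the numbers were 3599 without pool 8, 2531 without pool 11 and 4482 without pool 1, so the background moved too. With RNA input the count was 3 with Hoxb3 in place of Hoxb7, and all probes had 5198. The block, where the pairing comes from shared animals, changed no call after adjustment.

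Signs turned for small or imprecise values, and the cause was not tested. Hoxb1 became -0.011 after quantile normalization and -0.29 to 0.49 with a pool left out, being -0.29 without pool 1 and -0.01 without pool 12. Hoxb5 became 0.0061 after quantile normalization, and Hoxb9 became 0.062 without pool 11 and 0.053 given the brown adipocyte score. Without pool 12, Hoxb1 became 0.015 with array weights, 0.022 with the offset, 1.16 with the brown adipocyte score, 0.52 with the skeletal muscle score, 0.40 without pool 6, 0.13 without pool 8 and 0.080 without pool 11, against -0.64 without pool 1. Hoxb3 became 0.017 and Hoxb5 0.014 after quantile normalization, and Hoxb3 0.049 without pool 6 and 0.0049 without pool 8, against -0.17 without pool 11. Hoxb4 became 0.25 and Hoxb9 0.053 with the brown adipocyte score. With RNA input Hoxb8 became -0.12 and Hoxb9 0.0028, and Hoxb9 was 0.0024 without pool 11, against -0.15 without pool 1. The dim Hoxb1 probe is limited by signal over background, which the files do not give. Hoxb1 has no value with the dimmest probes left out.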
